A study of Mus musculus with 2 samples.

Results

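Neutrophils were followed in the ear skin of mice with allergic contact dermatitis (ACD) as the cells that carried neutrophil transcripts in single-cell RNA sequencing. Cells were chosen by these measured counts alone. A cell was taken as a neutrophil when S100a8 and S100a9 together made up at least 1% of its unique molecular identifiers (UMIs, the counted transcript molecules). It also needed at least 1 UMI of Retnlg, Csf3r or Cxcr2, at most 5 UMIs of the keratin genes Krt14 and Krt5, and no UMI of the T cell gene Cd3e. This rule gave 67 of 11665 cells in the ACD library and 4 of 12213 cells in the control (CTRL) library, or 71 of 23878 cells in all. Without the filter on cell quality the numbers were 69 and 4.

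Both libraries came from ear skin of ICR mice aged 7 to 8 weeks, for which no altered allele is given, and the methods give the sensitized animals as male. CTRL skin was healthy. ACD animals were sensitized with 1.0% 2,4-dinitrofluorobenzene (DNFB), a protein-reactive hapten, on the back, challenged on the ears with 0.2% DNFB on day 6, and sampled 60 hr later. Each condition was 1 library from digested skin after dead cells had been removed, so no value below has a replicate check and no test between conditions was possible. Whether several animals were pooled per library is not given in the sources used here.

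Neutrophils are short-lived phagocytes that leave the blood along chemokine, complement and lipid signals and kill microbes with granule proteins and reactive oxygen. Granules are filled in a fixed order in the bone marrow, so transcripts of primary and then secondary granule proteins mark early stages, and tertiary granule and secretory vesicle transcripts mark late ones. In contact dermatitis they enter the skin after the hapten challenge, and they are known as a source of interleukin 1β (IL-1β), of neutrophil-attracting chemokines and of the S100a8/S100a9 complex calprotectin.

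Promoter sequences are shown for 4 genes that the results turn on, which are the granulocyte protein genes S100a9 and Retnlg, the cytokine gene Il1b and the chemokine gene Cxcl2. They are the RefSeq windows of build GRCm38.p6 from 250 bases before to 50 bases after the start of the gene, in the direction of transcription. Capitals mark the letters GGGANTTTC of the NF-kB motif and TTGCNNAA of the C/EBP motif, searched on both strands, where N is any base.
S100a9: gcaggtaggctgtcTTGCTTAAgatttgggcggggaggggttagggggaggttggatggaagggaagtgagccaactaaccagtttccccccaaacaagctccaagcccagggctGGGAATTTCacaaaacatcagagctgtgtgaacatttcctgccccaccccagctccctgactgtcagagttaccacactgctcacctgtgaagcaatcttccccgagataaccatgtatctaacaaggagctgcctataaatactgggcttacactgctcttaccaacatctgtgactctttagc
Retnlg: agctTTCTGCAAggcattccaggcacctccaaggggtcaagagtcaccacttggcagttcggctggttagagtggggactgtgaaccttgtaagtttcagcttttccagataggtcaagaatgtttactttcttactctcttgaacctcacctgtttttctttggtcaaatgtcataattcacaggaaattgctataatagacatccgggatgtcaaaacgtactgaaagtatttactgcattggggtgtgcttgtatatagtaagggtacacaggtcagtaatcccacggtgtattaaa
Il1b: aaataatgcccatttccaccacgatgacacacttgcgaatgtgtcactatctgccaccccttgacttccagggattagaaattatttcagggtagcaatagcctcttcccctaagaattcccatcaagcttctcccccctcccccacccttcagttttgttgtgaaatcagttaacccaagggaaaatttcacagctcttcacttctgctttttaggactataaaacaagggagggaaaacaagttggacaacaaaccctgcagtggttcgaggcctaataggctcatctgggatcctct
Cxcl2: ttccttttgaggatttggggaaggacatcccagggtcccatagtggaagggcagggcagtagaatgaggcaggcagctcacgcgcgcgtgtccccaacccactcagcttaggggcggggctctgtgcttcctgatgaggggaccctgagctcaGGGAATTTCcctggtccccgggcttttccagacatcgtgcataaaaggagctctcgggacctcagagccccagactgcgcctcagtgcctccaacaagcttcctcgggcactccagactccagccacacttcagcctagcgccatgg
The windows lie on the minus strand at chr3:90695672-90695971 for S100a9, on the plus strand at chr16:48872358-48872657 for Retnlg, on the minus strand at chr2:129371090-129371389 for Il1b and on the plus strand at chr5:90903649-90903948 for Cxcl2. The NF-kB letters began 135 bases before the start of S100a9 and 97 bases before that of Cxcl2. The C/EBP letters began 236 bases before the start of S100a9 and 246 bases before that of Retnlg, and the Il1b window held neither. Among all 32851 windows, 1.11% held the NF-kB letters and 10.8% the C/EBP letters. Of the 15 genes with the highest ratio in neutrophils described below, 11 had a window that was used, of which 1 held the NF-kB letters and 4 the C/EBP letters. A match describes these letters only and is no evidence of binding.

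The share used by the rule left a gap at its limit. Among the ACD cells that met the other 3 criteria, the highest S100a8 and S100a9 share below the limit was 0.299% and the next 0.122%, whereas the lowest member shares were 1.20% and 1.47%. The median member had 10.3% of its UMIs in these 2 genes and the highest 32.1%. Of 72 ACD cells at or above 1%, 5 failed another criterion. The other criteria rested on Csf3r in 64 members, Retnlg in 54 and Cxcr2 in 47. The members held 89.8% of all S100a8 and S100a9 UMIs of the ACD library, and 2.66% lay in cells with more than 5 keratin UMIs.

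Neutrophils had few UMIs, with 701 to 16437 per cell, a median of 2042 and a median of 775 genes, against a median of 5847 UMIs in the 4126 other cells with a UMI of Ptprc, which encodes the leukocyte antigen CD45. The 2 libraries held 12895 (CTRL) and 13163 (ACD) barcodes with 99037698 and 126566870 UMIs, and 50 barcode sequences occurred in both, none of them in a neutrophil. A summed level cannot tell few cells with many UMIs of a gene from many cells with few. Numbers of cells with a UMI therefore stand beside many of the levels.

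A group of 6 ACD neutrophils stood apart. They had 8666 to 16437 UMIs, more than 3 times the median of the members, while the other 61 had at most 3920. They also carried stroma transcripts, with 11 to 60 UMIs of the collagen gene Col1a1 per cell and 21 to 328 of the proteoglycan gene Dcn. Summed over 6 stroma and cartilage genes they had 73 to 426 UMIs, against 0 to 4 in the other 61 cells, so the ranges did not overlap. Their S100a8 and S100a9 share was 1.20 to 3.54%, with 1.85 to 32.1% in the others, and they held 33.9% of all UMIs of the neutrophils. Scrublet, which scores simulated doublets, called 392 ACD cells (3.36%), among them 4 neutrophils, all 4 in this group. The limit of 3 times the median was chosen after the values had been seen. Where leaving out these 6 deep cells changed how many genes of a gene list were higher or lower, both counts are given. Other values include the deep cells unless stated.

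**Figure D1:**
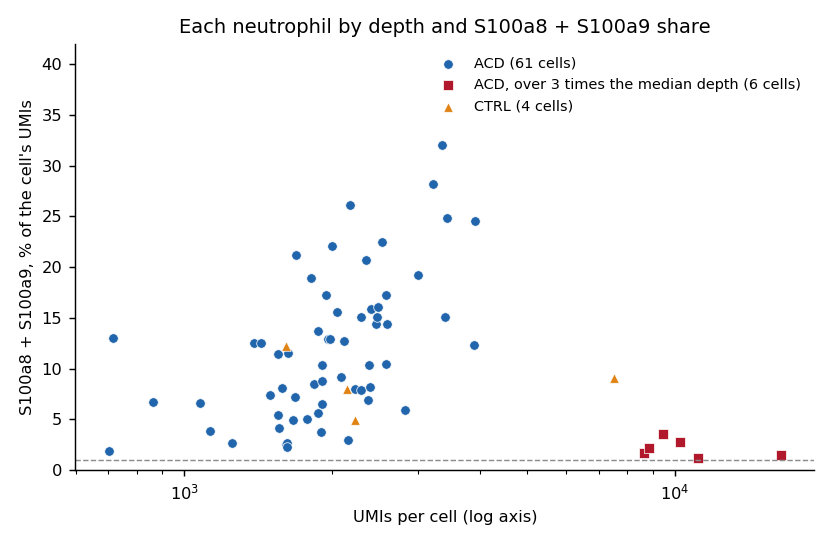
Each point is 1 neutrophil, with its UMIs on a log axis and the percentage of them in S100a8 and S100a9, and the dashed line marks the 1% limit of the rule. The 61 ACD cells (circles) had 701 to 3920 UMIs and shares up to 32.1%, the 6 deep ACD cells (squares) had at least 8666 UMIs and at most 3.54%, and the 4 CTRL cells are triangles.

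Markers of other cell types were counted in the same cells. Of 10 neutrophil markers all 10 were found, but 5 of them had been used to choose the cells. Ly6g, the gene of the classical surface marker Ly6G, had 10 UMIs in 6 of the 67 cells. No UMI was found of any of 6 basophil or 4 B cell markers, and the 7 macrophage markers were found for 2 genes with 13 UMIs in all, with no UMI of C1qa. The 6 monocyte markers gave 41 UMIs over 3 genes, mostly Fn1 with 23 and Csf1r with 15. The 7 keratinocyte markers gave 12 UMIs, and the rule limited 2 of them, Krt14 and Krt5. Dendritic, mast cell and eosinophil markers gave 2 UMIs each. The 7 markers of T and NK cells gave 29 UMIs, of which Cd3d had 15 in 14 cells. The rule allowed no UMI of Cd3e, another of these 7. Red cell genes gave 50 UMIs, and their summed level of 261 per 1000000 UMIs was below the 2076 of the other Ptprc-positive cells. Without the 6 deep cells the summed level fell from 214 to 142 for monocyte markers and from 152 to 111 for T and NK markers. It fell from 62.8 to 55.4 for keratinocyte markers. Sums of macrophage, dendritic, mast cell, eosinophil and red cell genes did not fall. Thy1, a T cell marker, was found in 4 of the 6 deep cells and in 0 of the other 61. The part of these transcripts of other cell types in the results was not tested.

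The ACD library held more neutrophils than the CTRL library, in a comparison of 1 library with 1 library. They made up 0.574% of ACD cells, with an exact Clopper-Pearson 95% interval of 0.445 to 0.729%, and 0.0328% of CTRL cells, with 0.00892 to 0.0838%. The log2 ratio was 4.13 (2.71 to 6.05). Among Ptprc-positive cells the shares were 63 of 4189 (1.504%) in ACD and 3 of 971 (0.309%) in CTRL. All intervals here and below cover counting error only, not the spread between animals, which 1 library per condition cannot show.

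The 4 CTRL neutrophils were not alike. Of these, 3 had 1609, 2141 and 2229 UMIs, within the range of the ACD cells, and S100a8 and S100a9 shares of 12.2, 7.99 and 4.98%. These 3 cells held 21, 35 and 52 UMIs of Il1b, 31, 27 and 30 of Cxcl2, and 28, 51 and 46 of Cd14, the lipopolysaccharide co-receptor gene. The fourth cell had 7501 UMIs and a share of 9.11%, but 7 UMIs of Il1b, 1 of Cxcl2 and none of Cd14, Csf3r, Cxcr2 or Ptprc. This cell instead had 94 of the 133 CTRL Retnlg UMIs, all 10 of the secondary granule gene Ngp and 23 of the 33 of the lysozyme gene Lyz2. It also carried 33 UMIs of Dcn and 43 of the cartilage gene Comp, so that stroma transcripts accompanied its depth as in the 6 deep ACD cells. With so few cells, levels in CTRL and ACD neutrophils are set side by side only. Il1b was at 10564 per 1000000 UMIs in ACD and 8531 in CTRL neutrophils, a log2 ratio of 0.31 (0.04 to 0.59), and Cxcl2 was at 6851 and 6602, a log2 ratio of 0.05 (-0.26 to 0.38). Without the deep cells of both libraries the direction turned for both genes. Il1b was then at 14441 in 61 ACD cells and 18063 in 3 CTRL cells, a log2 ratio of -0.32 (-0.60 to -0.03). Cxcl2 was at 8921 and 14718, a log2 ratio of -0.72 (-1.04 to -0.39). Transcripts of both genes were thus found in neutrophils of both libraries, and their order between the libraries depended on the deep cells.

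The program of the ACD neutrophils was described against the 4126 other Ptprc-positive cells of the same library and against 320 cells in 4 myeloid gates. These gates were set on marker UMIs and held 86 basophil, 28 macrophage, 172 dendritic and 34 monocyte cells, and a T cell gate held 2819. The macrophage gate also held Cd207, a Langerhans cell gene, at 4126 per 1000000 UMIs. Levels are sums of UMIs over the cells of a class, per 1000000 UMIs counted in that class. A gene was counted as higher or lower when its level differed by a fold of 2 or more, after 10 UMIs per 1000000 had been added to each side, among genes with at least 50 UMIs over both classes. Because all cells came from 1 library, these are counts past a fold, not tests. Against other Ptprc-positive cells 889 of 12152 genes (7.32%) were higher and 2620 (21.6%) lower, with a median log2 ratio of -0.37 over all genes. Against the myeloid gates 567 of 5453 genes (10.4%) were higher and 1632 (29.9%) lower, with a median of -0.42. Without the deep cells, 881 genes were higher than in other Ptprc-positive cells and 4170 lower, and the median was -0.64. Against the myeloid gates the median over all genes was then -0.83. Leaving out the deep cells therefore shifted ratios downward over all genes, and list counts without them include this shift. Levels of the leading transcripts were then higher, with 14441 for Il1b, 14307 for Cd14 and 8921 for Cxcl2.

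The highest ratios belonged to S100a9, S100a8, Retnlg, Hp, Cd14, Csf3r, Clec4e, Stfa2l1, Gm5483, BC100530, Clec4d, Ccrl2, Asprv1, Trem1 and Lcn2, in this order. Of these, S100a8, S100a9, Retnlg and Csf3r had been used to choose the cells. Hp encodes haptoglobin, the hemoglobin scavenger, and had 486 UMIs in 61 of 67 cells, 0 to 37 per cell with a median of 6. Its level was 2542 per 1000000 UMIs in neutrophils and 3.85 in other Ptprc-positive cells, a log2 ratio of 9.37 (9.07 to 9.67). Stfa2l1, Gm5483 and BC100530 belong to the stefin A family of cysteine protease inhibitors, whose copies are near-identical, so the split of UMIs between them is uncertain. They were uneven among cells, with UMIs in 32, 22 and 18 cells and up to 48, 44 and 75 UMIs in 1 cell. Neutrophils held 97.5% of all Stfa2l1 UMIs of the ACD library.

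The lowest ratios were those of Ctla2a, Cd3g, Ccl5, Rgs1, Nkg7, Gzma, AW112010, Ptprcap, Lat and H2-Ab1. These are mostly genes of T and NK cells, which made up most of the comparison cells. Ctla2a, Cd3g, Ptprcap and Lat had no UMI in any of the 67 cells. The rule allowed no UMI of Cd3e, so absence of T cell genes is not independent of how the cells were chosen.

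Granule genes differed by granule type. All 6 primary granule genes, among them Mpo for myeloperoxidase and Elane for neutrophil elastase, had none of the 191222 neutrophil UMIs, and a count of 0 allows a level of up to 15.7 per 1000000. Of the 9 secondary granule genes, Ltf for lactoferrin had none, Camp for cathelicidin had 1 UMI and Ngp had 35 UMIs in 6 cells. Lcn2, the siderophore-binding lipocalin, had 350 UMIs in 47 cells, and Mmp8, a collagenase, 48 UMIs in 27 cells. Among 5 secondary granule genes with enough UMIs 3 were higher and 0 lower than in other Ptprc-positive cells, with a median log2 ratio of 3.21. Against the myeloid gates the 5 genes split into 2 higher and 2 lower with a median of -0.26 (0.20 without the deep cells). Lcn2 was among the higher, and Cybb, an oxidase gene described below that is also in this list, was among the lower. Lyz2, the gene at that median, was at 1668 in neutrophils and 1994 in the gates.

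Tertiary granule and secretory vesicle genes were mostly higher. The list has 10 genes, of which 8 had a UMI in neutrophils, and Alpl and Fcnb had none. All 7 measured genes of this list were higher than in other Ptprc-positive cells, with a median log2 ratio of 3.88, and all 6 measured against the myeloid gates, with a median of 2.69. Mmp9, the gelatinase gene, had 104 UMIs in 50 cells and a level of 544, against 3.46 in other Ptprc-positive cells. Arg2, the mitochondrial arginase gene, was at 586 with 112 UMIs in 47 cells. Itgam, the CD11b integrin gene, was at 199 in neutrophils and 190.3 in the basophil gate, so it did not set these 2 classes apart.

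Receptors that guide neutrophils had the highest median of the functional gene lists, those other than cell type markers, in both comparisons. Of 8 measured chemoattractant receptor genes 7 were higher and 0 lower, with a median log2 ratio of 4.33 over other Ptprc-positive cells, and 6 of 7 were higher and 1 lower than in the myeloid gates, with a median of 2.90. Fpr1, the formyl peptide receptor gene, had 38 UMIs in 26 neutrophils and 1 UMI in all other Ptprc-positive cells. After each cell had been thinned to 1000 UMIs, Fpr1 was found in 16 of 64 neutrophils and in none of 305 myeloid gate cells. The complement C5a receptor gene C5ar1 was at 528 in neutrophils, 128 in the basophil gate and 27.0 over all myeloid gates. Cxcr2, used by the rule, was found at 486 and also in the basophil gate at 84.3. Ccrl2, a chemerin-binding receptor gene, had 0 to 39 UMIs per cell with a median of 8, and was at 3357 in neutrophils and 137 in the myeloid gates. C3ar1, the C3a receptor gene, had no UMI in neutrophils and was at 34.8 in the myeloid gates.

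**Figure D2:**
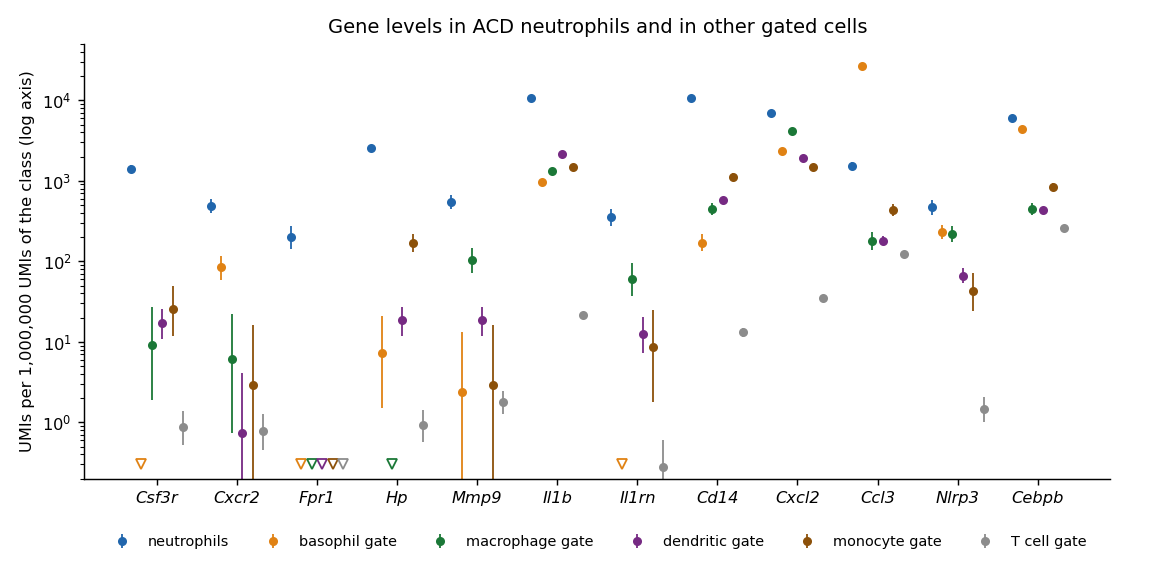
Points are the levels of 12 genes (UMIs per 1000000 UMIs of the class, log axis) in ACD neutrophils and 5 gated classes, bars are exact Poisson 95% intervals, and open triangles at the bottom mark classes with no UMI. Il1b stood at 10564 in neutrophils and at 2133 or less in the gates, whereas Ccl3 stood at 1522 in neutrophils and at 26999 in the basophil gate.

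Genes of the IL-1 family were mostly higher in neutrophils. Il1b, which encodes IL-1β, was found in all 67 neutrophils, with 2 to 204 UMIs per cell and a median of 25. Its level was 10564 (10108 to 11035), against 2133 in dendritic, 1483 in monocyte, 1325 in macrophage, 957 in basophil and 21.4 in T cell gates. The log2 ratio over the myeloid gates was 2.61 (2.53 to 2.69), and 3.06 without the deep cells. The 67 neutrophils held 23.7% of all Il1b UMIs in the ACD library although they were 0.574% of its cells. After thinning to 1000 UMIs, which left out 3 neutrophils, Il1b was found in all 64 others, in 27.2% of myeloid gate cells, in 3.03% of other Ptprc-positive cells and in 0.966% of Ptprc-negative cells. Before thinning the median depths of these classes were 2042, 5764, 5847 and 8404 UMIs, and Il1b was found in 100%, 41.2%, 5.55% and 2.86% of their cells.

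The genes that limit IL-1 were present in the same cells. Il1rn, which encodes the receptor antagonist, had 67 UMIs in 39 neutrophils and a level of 350, against 61.1 in the macrophage and 12.6 in the dendritic gate. Il1r2, the decoy receptor gene, had 185 UMIs in 54 cells and a level of 967, while the macrophage gate was at 1246. Nlrp3, the inflammasome sensor gene, was at 471 in 45 cells, above the 231 of the basophil and the 219.9 of the macrophage gate. Il36g, an epithelial and myeloid cytokine gene, had 33 UMIs in 20 neutrophils and none in the myeloid gates, but neutrophils held only 43.4% of its UMIs in the library. Il1a and Il18 had 4 and 2 UMIs. In all 7 of 11 measured genes of the list were higher and 0 lower than in other Ptprc-positive cells. Against the myeloid gates 6 of 10 were higher and 1 lower. Without the deep cells 1 was lower in the first comparison and 0 in the second.

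Chemokine genes were split. Cxcl2, a ligand of Cxcr2 that draws further neutrophils, had 0 to 105 UMIs per cell with a median of 11 and was found in 58 cells. Its level was 6851 (6485 to 7232), against 4101 in the macrophage, 2344 in the basophil, 1906 in the dendritic and 1480.1 in the monocyte gate. Ccl6 was at 2343 in 60 cells, below the 7618 of the basophil gate. Ccl3 and Ccl4, chemokine ligand genes, were at 1522 and 716 in neutrophils and at 26999 and 43556 in the basophil gate. The same neutrophil held 99 of the 137 Ccl4 UMIs (72.3%) and 82 of the 291 Ccl3 UMIs (28.2%). Ccl9 had 2 UMIs and Cxcl16 none. Over the 12 measured chemokine genes 3 were higher and 4 lower than in other Ptprc-positive cells, with a median log2 ratio of -0.50. Without the deep cells 7 were lower, with a median of -1.35, beside -0.64 over all genes. Against the myeloid gates 1 was higher and 7 lower, with a median of -1.75. Without the deep cells these were 2 and 9, with a median of -2.28, beside -0.83 over all genes.

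Other cytokine genes differed gene by gene. Tnf had 36 UMIs in 20 cells and a level of 188, against 168 in the myeloid gates, a log2 ratio of 0.17 (-0.37 to 0.66). Osm was at 178 and at 1911 in the basophil gate. Il6 and Il10 had no UMI in neutrophils, and Il6 was at 332 in the myeloid gates. Of 8 measured genes of this list 4 were higher and 2 lower than in other Ptprc-positive cells, with a median of 0.38 (1 lower without the deep cells), and of 6 measured against the myeloid gates none was higher and 1 lower.

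Pattern recognition and Fc receptor genes were high as a group. Of 14 measured genes 12 were higher and 0 lower than in other Ptprc-positive cells, with a median log2 ratio of 3.45. Against the myeloid gates 9 of 13 were higher and 1 lower, with a median of 2.43 (12 higher without the deep cells). Cd14 had 0 to 81 UMIs per cell with a median of 31 and was found in 66 of 67 neutrophils. Its level was 10616 (10159 to 11088), against 1127 in the monocyte, 578 in the dendritic and 446 in the macrophage gate, a log2 ratio of 4.22 (4.12 to 4.32) over the myeloid gates. Clec4e and Clec4d, lectin receptors for microbial glycolipids, were at 2542 and 858, and at 111 and 11.5 in the gates. Trem1, which amplifies inflammatory signals, was at 879 in 54 cells. Tlr4, which signals with CD14, had 1 UMI, whereas Tlr2 had 54 UMIs in 30 cells. Neutrophils held 34.9% of all Cd14 UMIs of the library and 70.4% of all Clec4d UMIs.

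The oxidase that makes superoxide was represented by cytosolic and membrane subunits. Ncf1 and Ncf4, genes of cytosolic subunits, were at 549 and 560 and had log2 ratios of 4.72 and 2.68 over other Ptprc-positive cells. Cyba, the smaller membrane subunit gene, was at 1480.0 in 65 cells. Cybb, the catalytic subunit gene, had only 5 UMIs, and its level of 26.1 was below the 265 of the myeloid gates, with a log2 ratio of -3.34 (-4.97 to -2.11). Over the list 4 of 6 genes were higher and 0 lower than in other Ptprc-positive cells (5 higher without the deep cells). Against the myeloid gates 4 of 6 were higher and 1 lower.

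Transcripts of the NF-kB pathway were mostly higher, its inhibitors among them. Of 18 measured genes 11 were higher and 0 lower than in other Ptprc-positive cells, and 9 higher and 0 lower than in the myeloid gates, with medians of 1.59 and 1.04. Nfkbia, which encodes the inhibitor IkBα, had 0 to 113 UMIs per cell with a median of 22, and was at 8571 in neutrophils and 3303 in the myeloid gates. Tnfaip2 was at 1909 in neutrophils, 1041 in the macrophage and 7.23 in the basophil gate. The subunit gene Nfkb1 was at 157 and at 201 in the gates, a log2 ratio of -0.36 (-0.94 to 0.17). Among transcription factor genes, Cebpb was found in all 67 cells with 1 to 50 UMIs and a median of 16, and its level of 5951 stood above the 1158 of the myeloid gates. Spi1, which encodes the myeloid factor PU.1, was at 905, and Mxd1, a Myc antagonist gene, at 1846. Cebpe, needed to make secondary granules, had no UMI. Of 10 measured factors 5 were higher and 0 lower than in other Ptprc-positive cells, with a median of 0.92. Without the deep cells 4 were higher and 1 lower, with a median of 0.60.

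**Figure D3:**
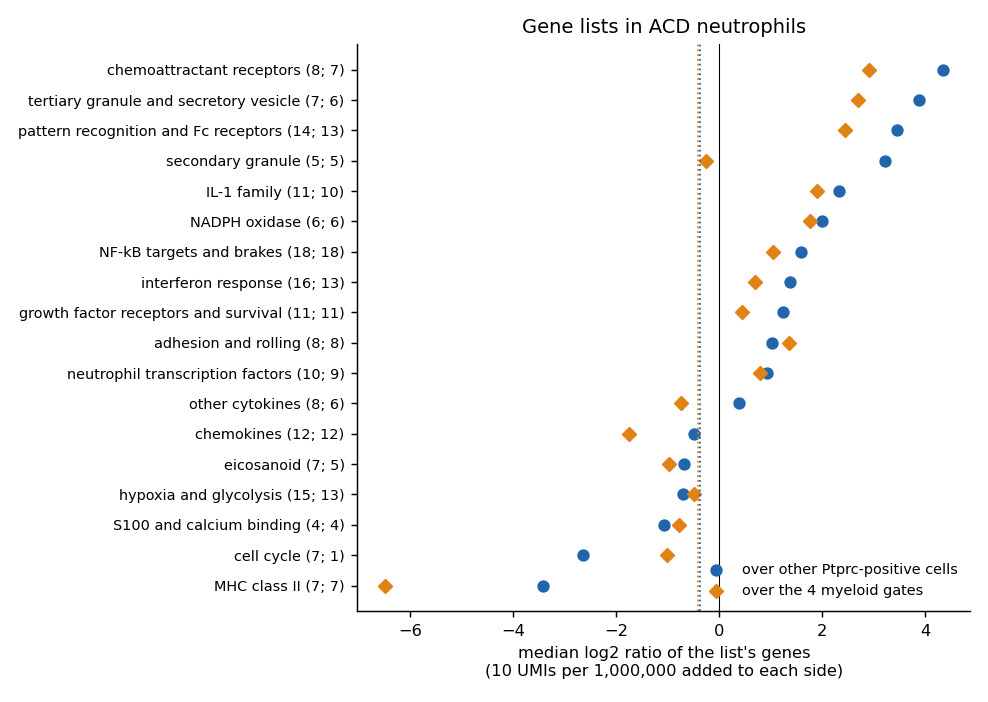
Each row is a gene list, with the numbers of genes measured in the comparisons with other Ptprc-positive cells and with the myeloid gates in brackets, and points are the median log2 ratios of ACD neutrophils over other Ptprc-positive cells (circles) and over the myeloid gates (diamonds), with 10 UMIs per 1000000 added to each side. Dotted lines are the medians over all genes, -0.37 and -0.42, and the lists ran from 4.33 for chemoattractant receptors to -3.42 for MHC class II against other Ptprc-positive cells.

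Interferon-response genes were uneven. Ifitm2 was at 3959 in 65 cells and Irf1 at 899 in 48 cells, and Isg15 had 51 UMIs in 31 cells with a level of 267 against 70.8 in the myeloid gates. Ifit3 had no UMI and Rsad2 1. Ifit1 had 15 UMIs in 2 cells, of which 14 lay in 1 cell, and none remained without the deep cells. Cd274, which encodes the checkpoint ligand PD-L1, had 57 UMIs in 30 cells and a log2 ratio of 2.02 (1.57 to 2.46) over the myeloid gates. Of 16 measured genes 10 were higher and 1 lower than in other Ptprc-positive cells, with a median of 1.36. Without the deep cells 8 were higher, with a median of 1.19. Of 13 against the gates 6 were higher and 1 lower, with a median of 0.69.

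Survival and adhesion genes differed gene by gene. Mcl1, the main survival factor of neutrophils, was at 2359 in 63 cells and at 957 in the myeloid gates. Csf2rb, the shared receptor chain for GM-CSF, IL-3 and IL-5, was at 126 and below the 1364 of the basophil gate. The Bcl2a1 genes are near-identical copies and their separate levels are uncertain. Of 11 survival genes 6 were higher and 1 lower than in other Ptprc-positive cells, with a median of 1.24, and 4 higher and 3 lower than in the gates, with a median of 0.44. Of 8 adhesion genes 4 were higher and 0 lower than in other Ptprc-positive cells (7 higher without the deep cells). Against the gates 6 were higher and 1 lower (7 higher without the deep cells).

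Eicosanoid genes split in the same manner. Alox5ap, needed for leukotriene synthesis, was found in all 67 cells at 1527, against 2371 in the basophil and 1209 in the macrophage gate, and Ptgs2, the inducible cyclooxygenase gene, was at 915 in 39 cells. Alox5 had 4 UMIs. Over this list 2 of 7 genes were higher and 2 lower than in other Ptprc-positive cells (3 and 1 without the deep cells), and 0 of 5 higher and 2 lower than in the gates.

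With the deep cells kept, the remaining lists had medians below the -0.37 of all genes over other Ptprc-positive cells. Of 15 hypoxia and glycolysis genes 2 were higher and 4 lower, with a median of -0.71 (5 lower without the deep cells). Over all genes 7.32% were higher and 21.6% lower. Without the deep cells the median of this list was -0.63, beside -0.64 over all genes. Against the myeloid gates it was then -0.29, above the -0.83 of all genes. Gapdh was at 1109 against 2199. All 7 cell cycle genes were lower, with 4 UMIs in all, and Mki67 had 1 UMI. Of 7 MHC class II genes 0 were higher and 6 lower, with a median of -3.42 and 24 UMIs in all, and all 7 were lower than in the myeloid gates, with a median of -6.49. H2-Ab1 had 3 UMIs in neutrophils and was at 9219.7 in the dendritic gate. Of 4 other S100 and calcium-binding genes 1 was higher and 2 lower than in other Ptprc-positive cells. S100a4 and S100a10 were at 418 and 235, and at 63.3 and 47.5 without the deep cells, against 2079.5 and 1921 in other Ptprc-positive cells, whereas S100a11 was at 2453 and above the 558 of those cells.

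Neutrophils varied among themselves. The 61 cells without the deep cells were ordered by their S100a8 and S100a9 share and split into low, middle and high groups of 21, 20 and 20 cells with shares of 1.85 to 7.89%, 8.01 to 14.4% and 14.4 to 32.1%. Their median depths were 1621, 1933 and 2477 UMIs, so depth moved with the share. The groups are ranges and not cell types, and levels here are per 1000000 UMIs other than those of S100a8 and S100a9. Of 844 genes with at least 20 UMIs in these cells, the 95% interval of the ratio of the high to the low group lay above 1 for 61 (7.23%) and below 1 for 63 (7.46%). Among the 108 genes of the lists and ranks it lay above 1 for 19 and below 1 for 14. Because the share was part of the rule, this is a description with no test.

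Secondary granule transcripts were higher where the share was high. Lcn2 was at 935 in the low, 1381 in the middle and 5704 in the high group, a log2 ratio of 2.61 (2.06 to 3.20). Lyz2 was at 453, 2424 and 4607, and Mmp8 at 121, 254 and 609. All 35 UMIs of Ngp lay in 6 cells of the high group. Retnlg was at 3469, 5609 and 21184. Hp was at 2745, 3383 and 5607. Gapdh was at 513, 1240 and 2413, a log2 ratio of 2.23 (1.48 to 3.07). A single cell held 330 of the 869 Retnlg UMIs of the high group, and another held 13 of the 35 Ngp UMIs. S100a6 was at 1780.0, 4905 and 7850 and S100a11 at 3077, 3805 and 4705.

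Other named genes had lower levels in the high group. Cxcr4, whose product draws aged neutrophils back to the bone marrow, had 14, 10 and 2 UMIs in the low, middle and high groups, a log2 ratio of -3.11 (-6.30 to -0.99). Cxcr2 was at 1026, 1015 and 390, and Nlrp3 at 996, 958 and 390. Icam1, an adhesion molecule gene, was at 483, 620 and 146, and Tnfaip2 at 4224, 3411 and 1828. Il1b was at 16261, 21197 and 13042, so the middle group was the highest. Some of these directions depended on leaving out the deep cells. When all 67 cells were split in the same way, the log2 ratio of the high to the low group was 0.26 for Cxcr2, 0.17 for Nlrp3 and 0.29 for Tnfaip2, with intervals that span 0, and 0.92 (0.75 to 1.09) for Il1b, while Cxcr4 was at -1.32 (-3.75 to 0.50) and Icam1 at -1.37 (-2.92 to -0.09).

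Other leading transcripts were close across the groups of the 61 cells. Cd14 had a log2 ratio of high over low of 0.11 (-0.06 to 0.29), Cxcl2 of 0.12 (-0.08 to 0.33) and Csf3r of -0.21 (-0.65 to 0.23). Il1rn was at 664, 451 and 609, with a log2 ratio of -0.12 (-1.01 to 0.77). These intervals leave room for differences of the sizes they span. Over all 67 cells, with the deep cells falling among the low shares, the log2 ratios were 1.30 for Cd14, 1.19 for Cxcl2, 1.12 for Csf3r and 1.24 for Il1rn, with intervals above 0.

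**Figure D4:**
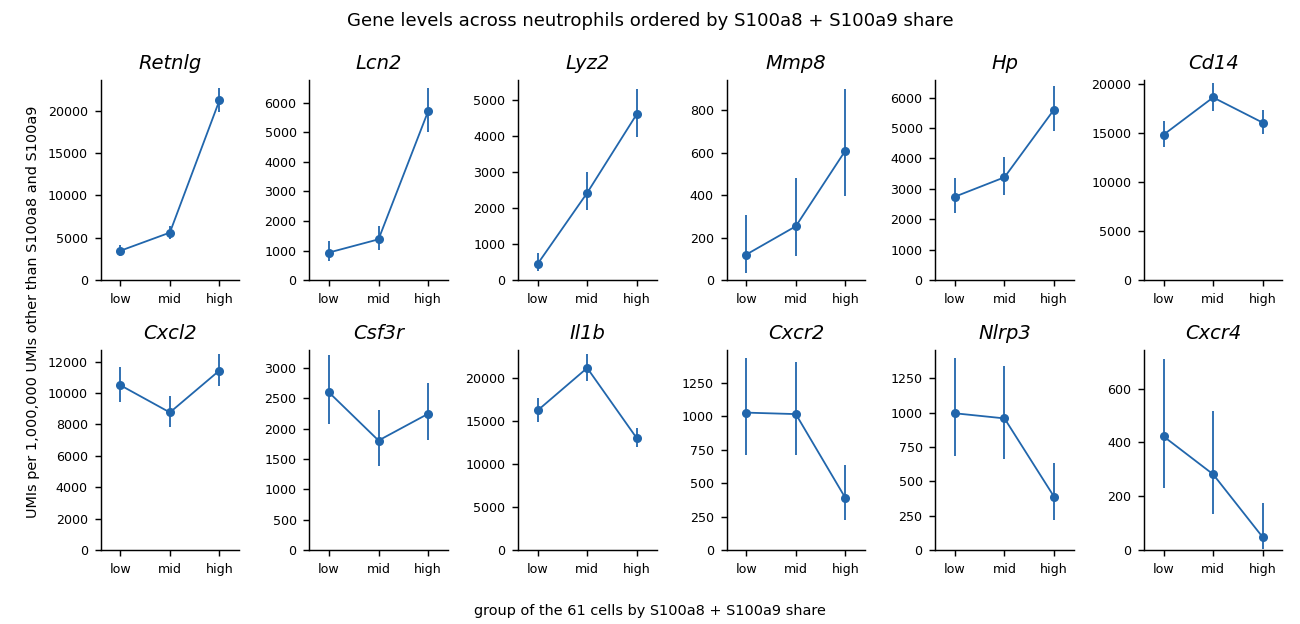
Panels show the level of 12 genes (UMIs per 1000000 UMIs other than S100a8 and S100a9) in the low, middle and high groups of the 61 ACD neutrophils by S100a8 and S100a9 share, with exact Poisson 95% intervals. Lcn2 went from 935 to 5704 and Cxcr4 from 14 to 2 UMIs, while Cd14 stayed between 14813 and 18604.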

How the data were processed

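The authors digested ear skin, removed dead cells, made 3' libraries with the 10x v2 chemistry and aligned them to mm10 (mm10-1.2.0 in the files) with Cell Ranger, version 3.1.0 in the submitters' processing notes and file headers. They deposited filtered matrices of raw UMI counts per gene and barcode, with no normalization. The study's methods name an earlier Cell Ranger version. The 2 matrices, 1 per condition, were used.

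Barcodes were kept if they had over 200 and under 5000 genes, no more than 25000 UMIs, and less than 8% of UMIs from mitochondrial genes. The study words its limit of 25000 UMIs as a minimum, and a maximum was applied here. It reports fewer cells after its filter in both conditions than were kept here. Shares of cells given here therefore refer to a different set of cells. Members and gene lists were chosen with earlier results of these data known. Named genes are those of 31 lists (273 symbols, of which 2 were absent from the files) and the 15 highest and 10 lowest ratios over other Ptprc-positive cells among genes with at least 50 UMIs.

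Levels are UMI sums per 1000000 UMIs with exact Poisson intervals, ratios have exact conditional binomial intervals, shares exact Clopper-Pearson intervals, all at 95% and for counting error only. Gates, in this order, needed Ptprc and T cell genes (Cd3e, Cd3d and Cd3g at least 2 UMIs), Mcpt8 (at least 3), C1qa, C1qb and C1qc (at least 3), MHC class II genes with Cd74 (at least 1% of UMIs), or Csf1r and Ms4a6c (at least 2). Doublets were not removed in the main values. Scrublet in scanpy 1.11.5 served as an alternative, with Python 3.11.15, numpy 2.4.6, scipy 1.17.1, pandas 2.3.3 and matplotlib 3.10.9. The ratio script was tested on simulated data. With 1 library per condition there is no p-value. Alternatives were other cell filters, rule limits, comparison cells, scalings, added constants and UMI minimums. A few genes of the lists are counted in them but not reported here by name.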

Additional observations from a re-analysis of the deposited data

How the results depend on the processing

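The number of neutrophils in ACD ran from 59 to 69 over other cell filters and rule limits, and the 4 CTRL cells were kept in all of them. Leaving out the deep cells left 61 and 3. Taking the myeloid gates as comparison cells gave 567 genes higher and 1632 lower. Adding 1 instead of 10 UMIs per 1000000 gave 1523 and 5768, and leaving out the deep cells, which was chosen after the data had been seen, gave 4170 lower. No other setting moved these counts by more than 1.5 times.

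List medians moved as follows. Against the myeloid gates they were -0.26 for secondary granule genes, which reversed, 2.69 for tertiary granules, 2.90 for chemoattractant receptors and 0.44 for survival. In the same comparison they were -1.75 for chemokines, -0.75 for other cytokines, which changed sign from 0.38, and 2.43 for pattern recognition. They were also 1.04 for NF-kB, -0.79 for S100 genes and -6.49 for MHC class II. Without the deep cells they were 4.35 for tertiary granules, 4.86 for chemoattractant receptors, -1.35 for chemokines, 2.44 for the oxidase and -2.18 for S100 genes. As means over cells they were -1.32 for chemokines, 2.32 for the oxidase, 0.51 for transcription factors and -1.50 for S100 genes. With an S100a8 and S100a9 share of at least 2% they were -1.54 for chemokines and 0.52 for transcription factors, without Scrublet calls -1.49 for S100 genes, with 1 UMI added 4.38, 5.96 and 4.22 for tertiary granules, chemoattractant receptors and pattern recognition, and with a minimum of 20 UMIs 3.32 for tertiary granules.

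For 244 named genes, a log2 ratio was counted as reversed when it passed a fold of 2 in the main values and changed sign. This held for 15 genes against the myeloid gates, 4 without the deep cells and at most 2 in any other setting. More ratios kept their sign or were small but moved beyond the width of their interval. These were 112 against the myeloid gates, 85 with 1 UMI added, 80 without the deep cells and at most 43 in any other setting. Ifit1 became -0.034 at the 2% share, -0.054 without keratin UMIs, -0.59 without Scrublet calls and -0.72 without the deep cells. Cebpa became -0.22 at the 2% share, -0.033 as a mean over cells and -0.57 without the deep cells. Comp became -1.91 without Scrublet calls and -2.23 without the deep cells, and Dcn -3.34 without the deep cells. Mcpt4 became 0.38 when comparison cells needed 2 Ptprc UMIs. Against the myeloid gates the reversed genes were Lyz2 (-0.26), Csf2rb (-1.44), Ccl3 (-1.64), Il1a (-0.35), Osm (-0.93), Csf1 (-0.57), Ier3 (-0.18), Cebpa (-0.64), Csf1r (-0.98), Cd68 (-0.85), Mcpt4 (0.87), Cd3d (2.65), Thy1 (1.32), Hbb-bs (1.12) and Hba-a1 (1.23). The cause of these reversals was not tested. No paired analysis was possible because each group had 1 library. With few UMIs per neutrophil, genes below about 20 UMIs in the class have wide intervals.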
